A study of Mus musculus with 37 samples.

Results

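miR-3969 (mmu-miR-3969) is a mouse microRNA, 1 of the 1915 mature microRNAs counted in small RNA libraries of whole blood. It was selected on its own measured age pattern in these data, a high level in the libraries taken at 16.5 months. A division of the 12-month libraries by its level was also known beforehand. Its levels are therefore given below as a description with no test. The libraries came from male C57BL/6 mice of the learning group, which were trained repeatedly in the water maze, a test of spatial memory. Blood was drawn from the retro-orbital sinus at 12 months (n = 9 libraries), 13.5 months (n = 12), 15 months (n = 5) and 16.5 months (n = 11), 37 libraries in all. By the methods of the study, the 12-month blood was taken before any behavioural experiment and the later samples after the probe tests, so age, training and repeated bleeding changed together and cannot be told apart. The study describes repeated bleeding of the same mice, so libraries of different ages can be repeat draws from 1 animal, but the labels do not tie a library number to an animal across ages. The fit over all libraries treated them as independent. A separate processing or sequencing run for an age is not given in the sources used here. Whole blood holds red cells, platelets, leukocytes and plasma, and in such bulk samples fewer cells of a type and less RNA per cell cannot be told apart.

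MicroRNAs are short RNAs, cut from hairpin precursors, that pair with messenger RNAs mainly through the seed, bases 2 to 8 of the mature strand, and lower the output of those messengers. miR-142 is among the most abundant microRNAs of blood-forming cells and is required in several leukocyte lineages. miR-3969 is set beside miR-142a-5p because the levels and the sequences of both are compared below. The mature sequences are printed with the seed in capitals (RefSeq, GRCm38.p6), miR-142b and miR-3964 being shown because they come next in likeness to miR-3969:
miR-3969: cCCUAAAGuagaaaucacua
miR-142a-5p: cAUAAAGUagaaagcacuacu
miR-142b: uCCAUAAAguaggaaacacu
miR-3964: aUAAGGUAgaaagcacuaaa

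None of the other mature microRNAs among the 1679 with a RefSeq sequence had the seed of miR-3969. Compared base by base without gaps, however, miR-142a-5p matched miR-3969 at 17 of 19 overlapping bases, with its first base facing base 2 of miR-3969. The match is shown with identical bases in capitals:
miR-3969: cCcUAAAGUAGAAAuCACUA
miR-142a-5p: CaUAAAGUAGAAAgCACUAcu
Counted from the 5′ end of miR-3969, the differing bases within the overlap were C3A and U15G, the base of miR-3969 being given first. miR-142b matched at 16 of 19 bases (differences C3A, A12G and U15A) and miR-3964 at 15 of 18 (C3A, A7G and U15G). The other 1675 microRNAs with a sequence matched at 12 bases or fewer, so these names stood apart in sequence. This comparison was made after the levels had been seen.

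miR-3969 and miR-142a-5p come from different chromosomes. In GRCm38, the Mir3969 precursor lies at chr5:87595902-87595993 on the minus strand, and the mature microRNA at 87595963 to 87595982. No other GENCODE gene overlaps it. The nearest genes are Sult1e1, an estrogen sulfotransferase gene 4308 bases away toward lower coordinates, and the processed pseudogene Gm43368, 5078 bases away on the other side. Within 1 Mb, neither GENCODE nor RefSeq lists another microRNA gene, so there was no neighbouring microRNA to compare. The Mir142 precursor lies at chr11:87756864-87756927 on the plus strand, inside the long noncoding gene Mir142hg but outside its annotated exons, and the Mir142b precursor overlaps it on the minus strand. The hairpins are printed because the study assigned reads to mature microRNAs by mapping them to precursors, with miR-3969 and miR-142a-5p in capitals:
Mir3969: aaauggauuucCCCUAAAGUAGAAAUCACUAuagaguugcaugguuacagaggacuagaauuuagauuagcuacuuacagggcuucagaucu
Mir142: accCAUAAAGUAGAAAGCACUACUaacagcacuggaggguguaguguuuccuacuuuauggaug
The longest run of bases that both precursors share was 11, which is shorter than the shortest read the study kept, and its methods state that reads had to match a precursor without mismatch. In the GENCODE transcripts, the exact mature sequence of miR-3969 was found in Mir3969 only and that of miR-142a-5p in Mir142 only. The length of the shared run bears only on reads without changed bases. The deposited counts do not hold the bases of the reads. Reads with changed bases, and how reads were divided between miR-3969 and miR-142a-5p, were therefore not tested.

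Depth bears on every value that follows. The rows of miR-486a-5p and miR-486b-5p, red cell microRNAs, held identical counts in all 37 libraries, so the sum over all microRNAs (2619533 to 20268095 per library, median 7787457) counts these reads in both rows. Without the miR-486b-5p row a library held 1458764 to 10692030 reads (median 4061227), of which miR-486a-5p took 79.6% to 94.3%. Outside both rows there were 140292 to 1131713 reads for all other microRNAs, and between 283 and 544 microRNAs were detected in a library. Levels are therefore given as read counts and as CPM, reads per 1000000 of an effective library size, which is the sum with both rows multiplied by edgeR's TMM factor. This factor ranged from 0.327 to 2.03. Of the 1915 microRNAs, 323 had more than 1 read in at least 50% of the libraries and entered the comparisons, miR-3969 among them.

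miR-3969 was detected in all 37 libraries. Over the series it had 21708 reads, of which 90.9% fell in the 11 libraries taken at 16.5 months. There, the count was lowest at 455, had a median of 1708 and was highest at 3762. On the CPM scale this was 182 ± 32.5 (mean ± SD, n = 11), with a lowest value of 138, a median of 178 and a highest of 231. The level at this age thus varied little between libraries, with a coefficient of variation of 17.9%, close to the 17.1% of miR-142a-5p.

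At the earlier ages miR-3969 was a minor microRNA. At 15 months the 5 libraries, replicates 1 to 5, held 9, 49, 38, 168 and 63 reads, or 3.12, 5.28, 5.98, 8.24 and 6.88 CPM (mean 5.90 ± 1.91, SD). At 13.5 months the count ran from 3 to 52 (median 32.5) and the level from 1.69 to 5.56 CPM (median 3.67, mean 3.50 ± 1.29, n = 12). The values at these ages overlapped each other. At 12 months the level ran from 5.57 to 45.3 CPM (median 10.7, mean 22.7 ± 17.3, n = 9), a spread that reached down into the values at 15 months.

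The order of the ages by mean level was therefore 13.5, 15, 12 and 16.5 months, and neighbours in this order overlapped except for the last step. The mean at 16.5 months was 8.0 times that at 12 months, 51.9 times that at 13.5 months and 30.8 times that at 15 months. The lowest library at 16.5 months (replicate 6, 138 CPM) was 3.0 times the highest of the 26 earlier ones (12 months replicate 4, 45.3 CPM). On the scale of log2(CPM + 1), the mean at 16.5 months lay 4.49 above the average of the 3 earlier age means. By read level, miR-3969 ranked 28th of all microRNAs at 16.5 months, against 74th, 137th and 120th at 12, 13.5 and 15 months. miR-142a-5p held rank 9 at each age.

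**Figure D1:**
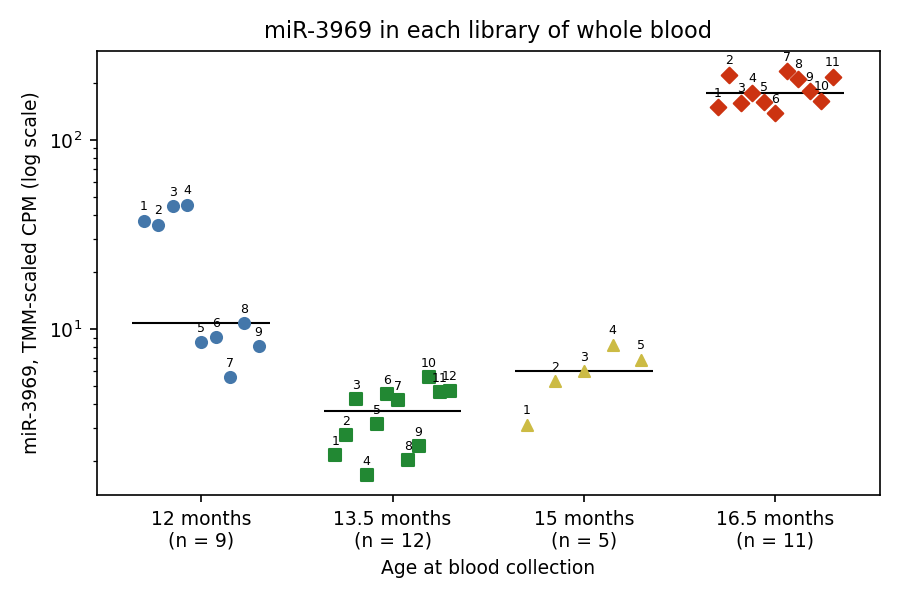
Level of miR-3969 in each of the 37 libraries (TMM-scaled CPM, log axis) by age at blood collection; each point is a library with its replicate number and the lines are medians. The 11 libraries at 16.5 months sit between 138 and 231 CPM, above every earlier library, and the 12-month libraries fall at 35.5 to 45.3 CPM (replicates 1 to 4) and 5.57 to 10.7 CPM (replicates 5 to 9).

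The separation of 16.5 months from all earlier libraries held under each scaling but 1. With TMM, with DESeq2 size factors, with CPM of the reads outside miR-486, and in the normalized table of the authors, miR-3969 lay above every earlier library in all 11 libraries. With CPM of the library total, where the share of miR-486a-5p enters the value, the highest earlier library (12 months replicate 4, 92.0 CPM) exceeded 1 of the 11 (replicate 10, 90.4 CPM). Among the 323 microRNAs compared with TMM scaling, miR-3969 was the 1 microRNA whose libraries at 16.5 months all lay above the earlier ones, and 0 lay all below. With CPM of the library total no microRNA separated in either direction. For comparison, 10.6% of the other 322 microRNAs (34) passed an adjusted p of 0.05 between 16.5 months and the mean of the 3 earlier ages by edgeR's quasi-likelihood test.

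The 12-month libraries held miR-3969 at 2 levels. Replicates 1 to 4 had 384, 165, 128 and 241 reads, or 37.3, 35.5, 44.4 and 45.3 CPM. Replicates 5 to 9 had 100, 78, 69, 72 and 50 reads, or 8.50, 9.07, 5.57, 10.7 and 8.10 CPM. Sorted by level, the largest step between neighbouring libraries was from 10.7 to 35.5 CPM, a factor of 3.31 or 1.64 on the scale of log2(CPM + 1). No library lay within it. The lower libraries touched the range at 15 months (3.12 to 8.24 CPM), whereas the higher ones lay between all other earlier libraries and those at 16.5 months.

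Other measures of these libraries overlapped across the step. The sum with both miR-486 rows ran from 4797739 to 8717337 below it and from 2619533 to 7160799 above it, and 403 to 484 against 330 to 461 microRNAs were detected. The share of miR-486a-5p in the reads without the miR-486b-5p row was 83.3% to 87.7% below and 79.6% to 93.0% above. The summed level of 6 leukocyte microRNAs was 2269 to 3697 CPM below and 2518 to 3007 CPM above, that of 6 platelet microRNAs 6994 to 10290 and 5008 to 8411 CPM, and that of 3 liver microRNAs 457 to 873 and 509 to 899 CPM. miR-142a-5p itself was at 2142 to 3282 CPM below the step and 2254 to 2848 CPM above it. None of these measures was divided as miR-3969 was. Since the libraries on each side were told apart by miR-3969 alone, no test was made between them, and whether they were prepared or sequenced apart is not given in the sources used here.

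To ask which microRNAs tracked miR-3969 from library to library, each of the other 322 microRNAs was correlated with it within an age on log2(CPM + 1). Such a within-age correlation does not use the difference between ages on which miR-3969 was chosen. At 16.5 months, 1 microRNA of 322 (0.311%, 0.311% positive and 0.0% negative) passed the test with p-values adjusted over all of them. This was miR-142a-5p, the abundant leukocyte microRNA that is closest to miR-3969 in sequence, with a Pearson's r of 0.98 (permutation test with 100000 resamples, two-sided, n = 11, p = 1e-05, the smallest it can give; adjusted p = 0.00322) and a Spearman's rho of 0.94 (permutation p = 8e-05, adjusted p = 0.0258). Without the libraries farthest from the median level (replicates 6 and 7) r was 0.98. It was between 0.97 and 0.99 under each other scaling and remained the highest of all microRNAs.

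The microRNAs next in order were far from this value and did not pass. miR-1839-5p had r = 0.59 (adjusted permutation p = 0.986), followed by miR-5126 at 0.56, miR-1306-3p at 0.56 and miR-141-3p at 0.55. The lowest values were -0.74 for miR-503-3p (adjusted permutation p = 0.863), -0.69 for miR-28a-3p, -0.64 for miR-7068-3p, -0.64 for miR-324-3p and -0.64 for miR-6967-5p. Most of these were counted in few reads, with medians of 2 to 37 per library except for the 175 of miR-1839-5p. The median r over the 322 was 0.01. With CPM of the library total, in contrast, the median r was 0.57 and 100 microRNAs passed.

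None of the other 5 leukocyte microRNAs passed at 16.5 months. miR-142a-3p, the other arm of the same hairpin, had r = 0.38 (adjusted permutation p = 0.986), miR-223-3p, a myeloid microRNA, r = 0.09, miR-150-5p, a lymphocyte microRNA, r = -0.05, miR-342-3p r = -0.19 and miR-155-5p r = -0.18. miR-142a-3p was counted far below the 5p arm, with 10 to 141 reads per library at this age. miR-3964, which followed miR-142b in likeness of sequence, had r = 0.43 (adjusted permutation p = 0.986) on 1 to 13 reads per library. miR-142b, read from the opposite strand of the same locus, had 2 reads in the whole series.

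**Figure D2:**
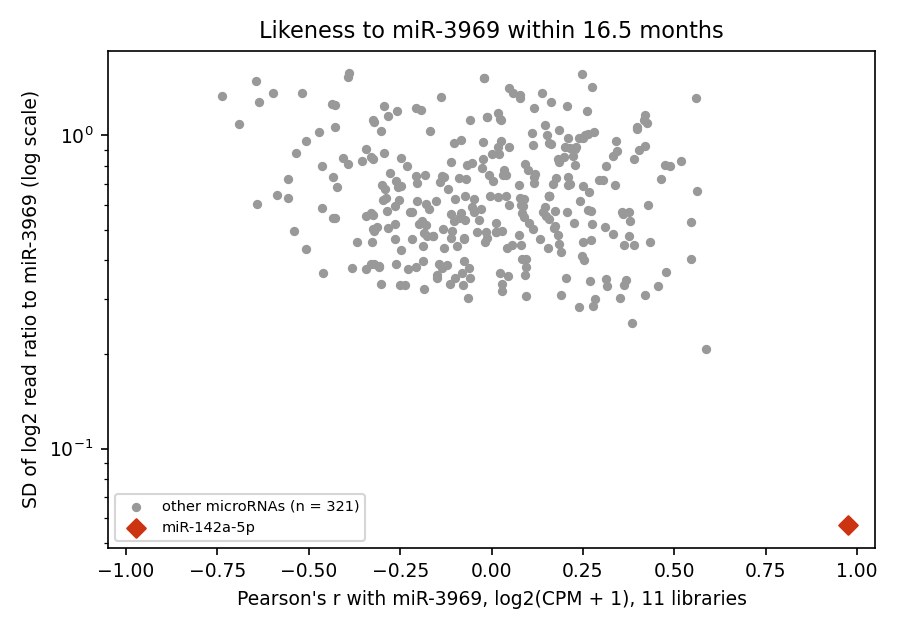
Likeness of 322 microRNAs to miR-3969 over the 11 libraries at 16.5 months: Pearson's r of log2(CPM + 1) on the horizontal axis and the SD of the log2 ratio of read counts, which needs no library scaling, on the vertical log axis. miR-142a-5p (red, r = 0.98, SD 0.057) stands apart from all others, of which miR-1839-5p (r = 0.59, SD 0.208) comes closest.

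A measure that needs no scaling gave the same first place at 16.5 months. It was added after the correlation had been seen. The log2 ratio of the read counts of miR-3969 and miR-142a-5p had an SD of 0.057 over the 11 libraries at 16.5 months. The next microRNAs were miR-1839-5p with 0.208 and miR-30c-5p with 0.251, and the median over 322 was 0.623. At 16.5 months the count of miR-3969 was thus nearly a fixed share of that of miR-142a-5p, as the plot of the counts of both shows. By the same SD, miR-142a-5p ranked 107th, 17th and 29th of 322 at 12, 13.5 and 15 months (SD 1.29, 0.452 and 0.329).

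**Figure D3:**
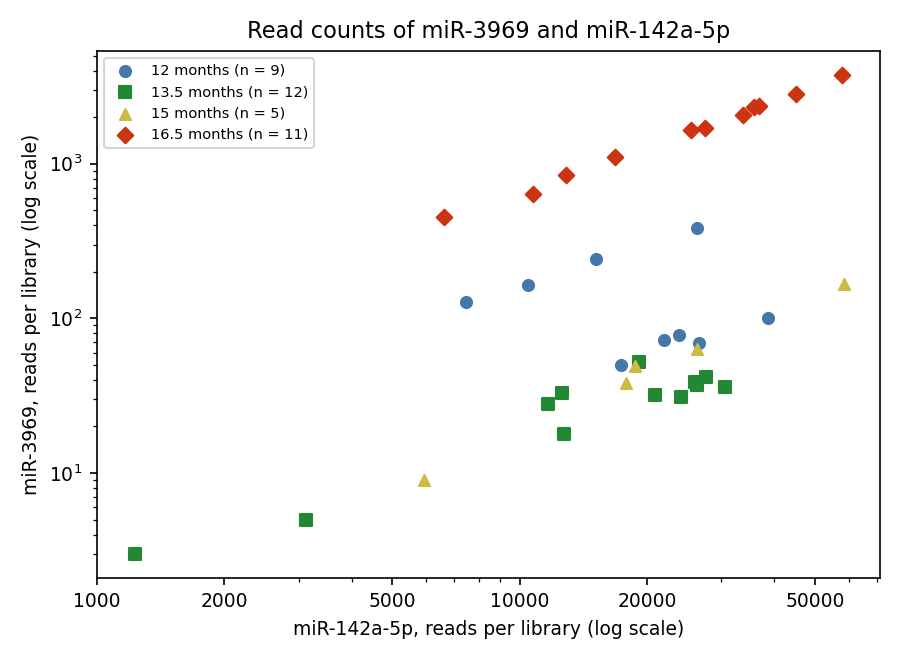
Read counts of miR-3969 against miR-142a-5p in the 37 libraries, both on log axes, with a colour and marker for each age. The libraries at 16.5 months follow a straight line from 455 and 6603 reads to 3762 and 57991 reads; at 12 months, 4 libraries lie above the band of the other 5.

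Per 100 reads of miR-142a-5p there were 6.41 ± 0.252 reads of miR-3969 at 16.5 months (mean ± SD, n = 11). The lowest library had 5.95 (replicate 6, 95% exact binomial interval 5.49 to 6.45), the median was 6.48 and the highest 6.89 (replicate 10, 6.25 to 7.58). These intervals cover counting error only. The coefficient of variation of the ratio was 3.93%, against 2.95% from counting error alone, and the chi-square of the counts against a common ratio was 1.37 per degree of freedom. Library to library, then, the ratio varied little beyond the counting of reads, while the count of miR-142a-5p itself ranged from 6603 to 57991.

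The ratio was lower at every earlier age. At 15 months, replicates 1 to 5 had 0.152, 0.261, 0.213, 0.287 and 0.240 reads of miR-3969 per 100 of miR-142a-5p, with a chi-square that came to 1.55 per degree of freedom. At 13.5 months the ratio ran from 0.118 to 0.272 with a median of 0.153. There, replicates 1, 6, 7 and 10 had 0.244, 0.272, 0.262 and 0.240, and the other 8 libraries lay between 0.118 and 0.160. The chi-square was 3.01 per degree of freedom, more than at 15 or 16.5 months. Replicates 1, 4 and 10, however, rested on 3, 5 and 28 reads of miR-3969. Their 95% exact intervals, 0.0503 to 0.716, 0.052 to 0.374 and 0.159 to 0.347, reached both ranges.

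At 12 months the ratio took the same 2 levels as the level of miR-3969. Replicates 1 to 4 had 1.46, 1.58, 1.72 and 1.59 reads per 100, with exact intervals that overlapped one another. Replicates 5 to 9 had 0.259, 0.328, 0.260, 0.328 and 0.288, again with overlapping intervals. Over all 9 libraries the chi-square was 117 per degree of freedom, far beyond counting error. These 2 levels were known before this value was computed, so it describes them and is no test of them. The libraries at 12 months thus shared no common ratio, and no correlation is given for them, since they fell into sets of fewer than 6. With 5 libraries, none is given at 15 months.

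**Figure D4:**
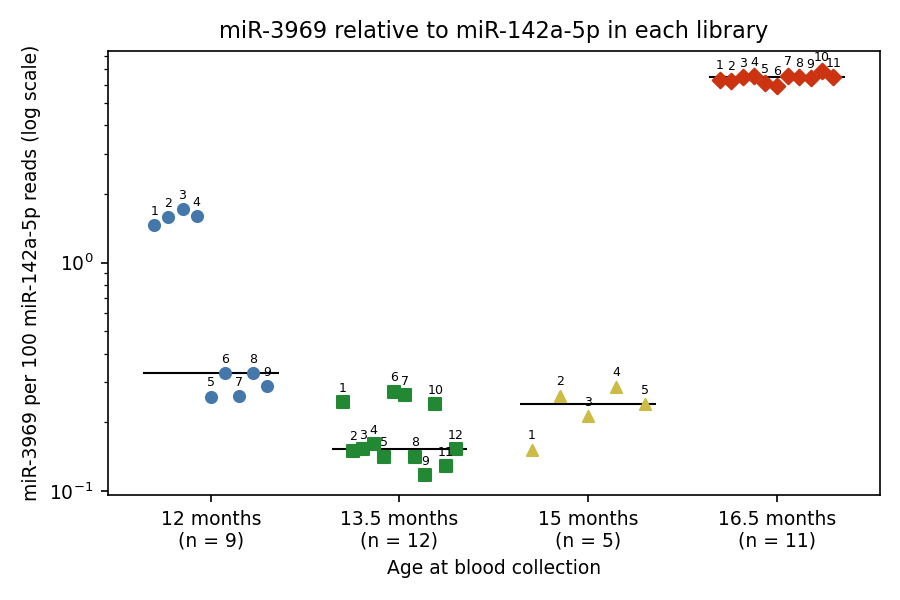
Reads of miR-3969 per 100 reads of miR-142a-5p in each library (log axis) by age, with replicate numbers and the median of each age as a line. The ratio lies at 5.95 to 6.89 in all libraries at 16.5 months, at 1.46 to 1.72 or 0.259 to 0.328 at 12 months, and below 0.3 at 13.5 and 15 months.

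The age means of miR-142a-5p lay within a narrower range. Its mean level was 2725 CPM (SD 394) in the 12-month libraries and 2042 CPM (SD 812) in those taken at 13.5 months. It then came to 2523 CPM (SD 444) at 15 months and to 2836 CPM (SD 485) at the last age. Its log2 fold change between 16.5 months and the mean of the earlier ages was 0.23 ± 0.15 (SE; edgeR quasi-likelihood adjusted p = 0.351), and against 15 months 0.17 ± 0.22 (adjusted p = 0.911). Between 13.5 and 12 months it was -0.42 ± 0.18 (adjusted p = 0.0797), which passed the threshold under 5 of 8 alternatives, with an adjusted p of 0.00337 to 0.0436 under them. The mean ratio of miR-3969 to miR-142a-5p at 16.5 months was 7.39 times that at 12 months, 35.6 times that at 13.5 months and 27.8 times that at 15 months.

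Pairs of other microRNAs with similar sequences were examined in the same way, after the values of miR-3969 had been seen. Among the 281 compared microRNAs with a RefSeq sequence, 45 other pairs shared at least 17 bases and differed at least 10-fold in total reads. These involved 29 minor partners, many of the let-7 family, so the pairs were not independent. The log2 ratio of miR-3969 to miR-142a-5p was 4.45 higher at 16.5 months than over the earlier ages, with an SD of 0.057 at 16.5 months. In the other pairs this difference lay between -1.41 and 1.04, and the SD at 16.5 months between 0.221 and 1.55 with a median of 0.623. Their minor partners had 74 (miR-152-3p) to 31085 reads (miR-26b-5p) over the series, against 21708 for miR-3969. With few reads the SD holds more counting error, which limits the comparison with this median. The partners with more reads than miR-3969, miR-26b-5p and miR-10b-5p (28180 reads), had SDs of 0.40 and 0.47. miR-3964 to miR-142a-5p, which matched at 17 of 20 bases, differed by 0.04.

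At 13.5 months, where miR-3969 had few reads, 58 of 322 microRNAs (18%) passed, 36 of them with a positive r (11.2%) and 22 with a negative r (6.83%). The highest were miR-339-3p (r = 0.91, rho = 0.90; adjusted permutation p = 0.00805 for r and 0.0093 for rho), miR-30b-5p (r = 0.91), miR-27a-3p (r = 0.87), miR-451a, an erythroid microRNA (r = 0.86), and let-7a-1-3p (r = 0.86). The lowest were miR-92b-3p (r = -0.86, rho = -0.87; adjusted permutation p = 0.00805 for r and 0.00989 for rho), miR-92a-3p (r = -0.85), miR-676-3p (r = -0.83), miR-328-3p (r = -0.82) and miR-375-3p (r = -0.81). miR-142a-5p had r = 0.73 (adjusted permutation p = 0.0468) and rho = 0.78 (adjusted permutation p = 0.0299) and ranked 30th. Of the microRNAs named, let-7a-1-3p had a median of 1 read per library at this age and the others 25 to 107348. let-7c-2-3p had the same total as let-7a-1-3p (124 reads) and the same r at 16.5 months (-0.01), so 1 signal can enter the 58 more than once.

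The number of calls depended on the libraries included. Without replicates 4 and 8, which were farthest from the median with 5 and 18 reads of miR-3969, 3 microRNAs passed the adjusted threshold. The median absolute r of the 58 was 0.77 with all 12 libraries and 0.73 without these, and 51 of the 58 still had an unadjusted permutation p under 0.05. The 58 were chosen by r in these same libraries. Like values and signs without replicates 4 and 8 therefore give the calls no further support. Of the 3, miR-339-3p (r = 0.89) and miR-148b-5p were among the 58, all of which kept their sign, and miR-142a-5p no longer passed (r = 0.61, adjusted permutation p = 0.162). miR-142a-5p, the 1 microRNA called at 16.5 months, was among the 58 called at 13.5 months. Of the 58, 26 had an r of the same sign at 16.5 months and the larger part did not. The signs thus did not carry over as a set.

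Across ages and with TMM scaling, 28 other microRNAs had age means that spanned at least 1 log2 unit. The widest span among them was 1.71 (miR-30b-5p), against 5.38 for miR-3969. Those whose 4 age means correlated most with its own were miR-340-3p (r = 0.90), miR-30c-5p (0.85), miR-15b-3p (0.80), miR-186-5p (0.80) and miR-99a-5p (0.65), a description over 4 points. miR-340-3p went from 2.88 ± 1.39 CPM at 13.5 months to 7.80 ± 1.70 CPM at 16.5 months, and miR-30c-5p from 555 ± 123 to 1194 ± 149 CPM. Their changes were thus of another order than that of miR-3969. The choice depended on the scaling, since none of these 5 was among the first 5 with CPM of the reads outside miR-486. There, 120 microRNAs spanned at least 1 log2 unit, miR-26b-3p led (r = 0.99) and the 5th highest r was 0.88. With CPM of the library total, 52 did, and the highest r was 0.99.

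**Figure D5:**
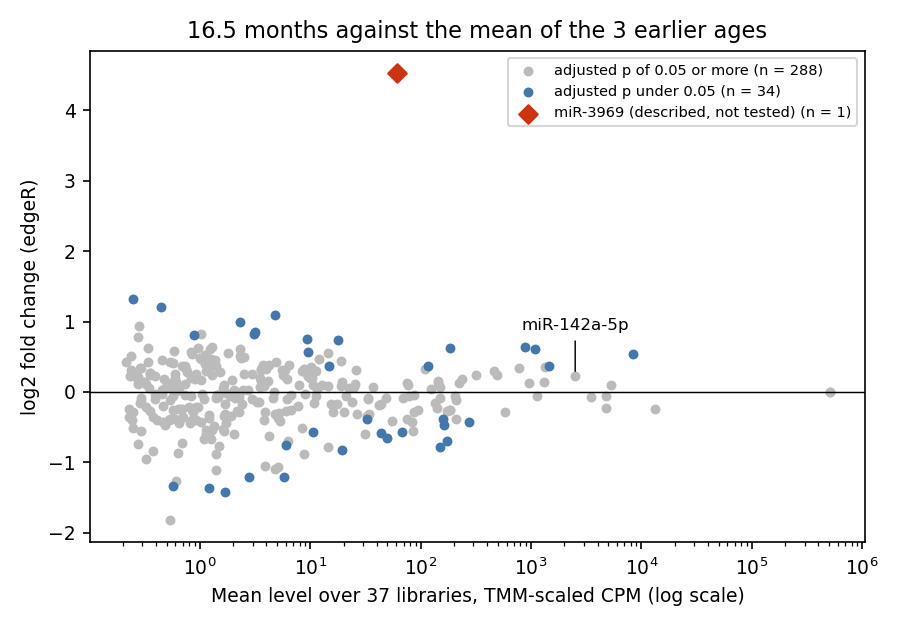
log2 fold change at 16.5 months against the mean of the 3 earlier ages (edgeR) for 323 microRNAs, against their mean level over 37 libraries (TMM-scaled CPM, log axis). miR-3969 lies at 4.53, and the other microRNAs lie between -1.82 and 1.32, of which the 34 past the threshold are blue.

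To show what else differed at the age at which miR-3969 was high, the other 322 microRNAs were tested between 16.5 months and the mean of the 3 earlier ages. The fitted log2 fold change of miR-3969 was 4.53, whereas the others ranged from -1.82 to 1.32 with a median over all tested of -0.03. Of them, 17 rose (5.28%) and 17 fell (5.28%) by edgeR's quasi-likelihood test with Benjamini-Hochberg adjustment. The largest rises were those of miR-6899-3p (log2 fold change 1.32 ± 0.39, SE, adjusted p = 0.025), miR-1198-3p (1.21 ± 0.33, adjusted p = 0.0143), miR-340-3p (1.10 ± 0.19, adjusted p = 7.27e-05), miR-26b-3p (0.99 ± 0.22, adjusted p = 0.00179) and miR-28a-5p (0.86 ± 0.16, adjusted p = 0.000346). miR-6899-3p and miR-1198-3p had medians of 2 and 3 reads per library. The levels of miR-340-3p at 16.5 months (5.17 to 10.6 CPM) overlapped the earlier ones (up to 6.28 CPM).

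The largest falls were of a like size. They were those of miR-183-5p (-1.42 ± 0.40, edgeR adjusted p = 0.0143), miR-7019-3p (-1.37 ± 0.38, adjusted p = 0.0143), miR-378b (-1.34 ± 0.41, adjusted p = 0.0253), miR-210-3p, a microRNA induced by low oxygen (-1.21 ± 0.29, adjusted p = 0.00385), and miR-100-5p (-1.20 ± 0.34, adjusted p = 0.0143). Median reads per library were 3 for miR-378b, 9 for miR-7019-3p, 10 for miR-183-5p, 16 for miR-100-5p and 44 for miR-210-3p. At 12 months, miR-183-5p was highest in replicate 7 (10.1 CPM, next 2.63). miR-210-3p was at 5.67 ± 2.88, 9.53 ± 5.15, 4.14 ± 2.48 and 2.58 ± 1.12 CPM at the 4 ages in order. When libraries were scaled by their total alone, 3 microRNAs passed in place of 34.

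Between 16.5 and 15 months, where miR-3969 differed by a log2 fold change of 4.91, none of the other 322 microRNAs passed (0.0% higher, 0.0% lower) by edgeR, and 31 had an unadjusted p under 0.05. DESeq2 called 10 and edgeR with 1 RUVs factor 11. Between 13.5 and 12 months, where the fitted value of miR-3969 was -2.66, 69 of 322 passed (21.4%), 32 higher (9.94%) and 37 lower (11.5%) at 13.5 months. The largest of these were miR-1970 (1.79 ± 0.45, edgeR adjusted p = 0.00424) and miR-24-2-5p (-1.85 ± 0.41, adjusted p = 0.00095). Their medians were 3 and 8 reads per library. Without 12 months replicate 7, 45 passed. These comparisons share libraries with that between 16.5 months and the earlier ages.

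Cell type microRNAs were followed beside the rise of miR-3969. Of 6 leukocyte microRNAs, all tested, miR-342-3p was higher at 16.5 months than over the earlier ages (log2 fold change 0.74 ± 0.20, edgeR adjusted p = 0.0129) and the other 5 did not pass. The summed level of the 6 was 2585 to 4082 CPM at 16.5 months, most of it miR-142a-5p (2320 to 3539 CPM). At 12, 13.5 and 15 months the sum was 2269 to 3697, 1236 to 3751 and 2215 to 3339 CPM. Of 6 platelet microRNAs, 5 were tested and miR-191-5p passed (0.53 ± 0.14, edgeR adjusted p = 0.0105). The others tested did not pass, at -0.40 (miR-126a-3p), -0.41 (miR-126a-5p), -0.29 (miR-24-3p) and 0.07 (miR-21a-5p). The summed level of the 6 was 8431 to 17900 CPM at 16.5 months. At the earlier ages in order it was 5008 to 10290, 3519 to 13200 and 5926 to 8914 CPM. miR-191-5p dominated this sum, with a mean over the 37 libraries of 8450 CPM against 151 CPM for the next tested member, miR-21a-5p. None of 7 erythroid, 2 tested liver, 1 tested muscle and 1 tested neuronal microRNA passed. The share of any of these in the level of miR-3969 was not tested.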

How the data were processed

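The authors prepared libraries with the TruSeq small RNA kit, trimmed adapters, checked reads with FastQC 0.11.5, mapped them to mm10 and counted mature microRNAs with miRDeep2 on miRBase precursors. The deposited raw table holds whole-number read counts, and the first row of each mature name was used (1915 names of 2241 rows). The deposited normalized table holds a scaled signal, in which each library's counts are multiplied by 1 factor, and served as an alternative. Groups came from the age labels.

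microRNAs with more than 1 read in at least 50% of the libraries were kept (323). All 37 libraries entered 1 fit in edgeR 4.0.16 (R 4.3.3; TMM, quasi-likelihood test, Benjamini-Hochberg threshold 0.05). Correlations used log2(CPM + 1) with a pseudocount of 1 and 100000 permutations (numpy 2.4.6), drawn for 322 relations at each of 2 ages. Both scripts were tested on simulated data. Depth ran from 1458764 to 10692030 reads per library without the miR-486b-5p row, which repeats that of miR-486a-5p, and from 2619533 to 20268095 as summed for library sizes with both. Intervals (scipy 1.17.1) are 95% exact binomial. DESeq2 1.42.0, other scalings and filters, and left-out libraries were alternatives.

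miR-3969 and the lists were chosen with earlier results of these data known. The microRNAs named were miR-3969, the 5 with the largest rise and fall past the threshold at 16.5 months, the 5 highest and lowest correlations at 2 ages, the 5 with the most similar age means, those not overlapping between ages, those sharing the seed or lying within 1 Mb, the cell type markers and the first in each direction of the other contrasts; miR-142a-5p, miR-142b, miR-3964 and miR-148b-5p were added after their values were seen. The study was longitudinal, so libraries of different ages may come from the same mice. The fit treated them as independent, since the labels do not link them, and p-values measure only the spread between these libraries. Same-numbered libraries of different ages did not deviate together (mean correlation -0.04 over 44 pairs, -0.54 to 0.53), and no 2 libraries of an age agreed within sampling noise (lowest chi-square per degree of freedom 9.97).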

Additional observations from a re-analysis of the deposited data

Results flagged for a closer look

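Among 58 microRNAs named or listed as markers, and the ratio of miR-3969 to miR-142a-5p, 118 groups of 9 or 5 libraries (12 and 15 months) were examined for a single library far from the rest, and 11 had one; chance gives about 1 in 20 groups. The groups at 13.5 and 16.5 months are too large for the rule used. Neither the level of miR-3969 nor its ratio to miR-142a-5p had such a library. At 12 months the rule could hardly flag one for these, since the libraries lay in sets far apart, each with several members. At 12 months, replicate 7 was the highest for miR-451a (17410 CPM, next 9584), miR-141-3p (9.21 CPM, next 2.53), miR-183-5p (10.1 CPM, next 2.63) and miR-126a-5p (4.2 CPM, next 1.94), and this library had the lowest level of miR-3969 at its age. Replicate 4 was the highest for miR-223-3p (54.1 CPM, next 33.1) and miR-339-3p (9.02 CPM, next 5.23). The other libraries at 12 months were replicate 6 for miR-150-5p (717 CPM, next 375), replicate 1 for miR-155-5p (2.53 CPM, next 1.11), replicate 5 for miR-5126 (4.33 CPM, next 2.43) and replicate 3 for miR-6899-3p (0.694 CPM, next 0.233). At 15 months, replicate 1 was the highest for miR-5126 (3.81 CPM, next 1.10).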

How the results depend on the processing

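The difference of miR-3969 between 16.5 months and the earlier ages kept its direction under all alternatives (log2 4.42 to 4.71). With each library left out it was 4.43 to 4.55. The largest step at 12 months divided the same libraries under each scaling (1.55 to 1.75, and 0.79 with CPM of the library total). With each library left out this step was 1.64 to 1.86. With CPM of the library total, the libraries above the step also lay far apart from one another, so it stood out less. The count of other microRNAs differing at 16.5 months against the earlier ages, 34, became 3 with the library total only, 53 by DESeq2, 68 with 1 RUVs factor, 21 of the 88 with at least 100 reads in 50% of libraries, and 21 without the 12-month libraries, a choice made after seeing the data. With each library left out it was 24 to 39. Against 15 months the count of 0 became 10 by DESeq2, 11 with 1 RUVs factor, 3 with at least 100 reads, and 1 with TMM on those microRNAs, also chosen after seeing the data. With each library left out it was 0 to 3, reaching 3 without 16.5 months replicate 7. Between 13.5 and 12 months the count of 69 became 29 with the library total only, 40 with no filter and 41 with at least 100 reads; with each library left out it was 45 to 82, the lowest without 12 months replicate 7. With the replicate number as a block these counts were 29, 1 and 83; the numbers did not pair the libraries. The count of microRNAs correlated with miR-3969 at 16.5 months, 1, became 100 with CPM of the library total. At 13.5 months, 58 became 112 with CPM of the reads outside miR-486, 163 with CPM of the library total, 27 with at least 100 reads, and 3 without the libraries farthest from the median; miR-142a-5p ranked 17th there by the SD of the log2 ratio. With DESeq2 size factors its r at 13.5 months was 0.69 (adjusted permutation p = 0.0661). The cause of these differences was not tested. Depth limits miR-3969 most at 13.5 months, where a library held 3 to 52 of its reads.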
